A study of Mus musculus with 12 samples.

Results

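The effect of L-arginine (L-Arg) on colonic gene expression was set against the injury state of the colon, as the interaction of a 2 by 2 design with 3 mice in each of 4 groups. The interaction of a gene is its L-Arg effect in DSS mice (DSS + L-Arg minus DSS) minus its L-Arg effect in uninjured mice (control + L-Arg minus control), on the log2 scale. The same number is the DSS effect in mice given L-Arg minus the DSS effect in mice given water. All 12 arrays of the series entered, and all 19938 genes that could be named were tested, each through its brightest probe set that the platform annotation ties to exactly 1 gene. The DSS + L-Arg mice drank 4% dextran sulfate sodium (DSS) for 6 days and then 1% L-Arg for 4 days, and the DSS mice drank DSS for 6 days and then water. The control + L-Arg mice had water for 6 days and 1% L-Arg for the last 4 days, and the control mice had water throughout. The strain was C57BL/6, wild type, and all animals were males that entered at 7 weeks of age (the labels also give 8 weeks and 3 days). Colon tissue was taken on day 10. DSS mice that lost too much weight were removed during the protocol, so only survivors were measured, and each RNA came from small tissue pieces rather than from the whole colon.

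DSS is a chemical that damages the colonic epithelium and sets off an infiltrate of neutrophils and macrophages, and the days after its withdrawal are a phase of repair. L-Arg is the shared substrate of inducible nitric oxide synthase, which makes nitric oxide, and of the arginases, which make ornithine, the precursor of polyamines and proline. During colitis, fibroblasts, macrophages and epithelial cells release matrix metalloproteinases, zinc enzymes that cut collagen and other matrix proteins, and plasminogen activators that set extracellular proteolysis going. An interaction with a negative sign means that the L-Arg effect was lower in injured than in uninjured colon. The transcript could be lower with L-Arg in both, by more in injured colon, or lower in injured and higher in uninjured colon. It could also be higher in both, by less in injured colon.

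A gene was called where limma's moderated test of the interaction, fitted on all 12 arrays, had a p under 0.05 after Benjamini-Hochberg adjustment over all genes. The interaction was called for 15 genes, 0.0752% of those tested, of which 13 were negative (0.0652%) and 2 positive (0.01%). The negative genes were those of the extracellular proteases Mmp13, Mmp3, Mmp10, Plau and C1s1, the protease inhibitor Serpina3n, the secreted proteins Cp, Il6 and Nrg1, the hyaluronan-binding Cemip, the prostaglandin enzyme Ptges and the myeloid genes Ms4a4a and Aoah. The positive genes were Pla2g3 and Lyrm7. In each of the 15, the 3 DSS + L-Arg arrays did not overlap the 3 DSS arrays, and the DSS effect was smaller with L-Arg than with water. The share of all genes whose arrays did not overlap was not counted. In 14 the L-Arg effect had opposite signs in injured and uninjured mice. Over all genes the 2 signs were the same in 47.67%. The interaction that chose the 15 was computed from these same arrays, so these counts describe the genes and support nothing. The part of the interaction that came from the injured mice had a median of 88.5% over these genes (range 56.9% to 101%). All values are log2 array signals, in which a difference of 1 is a 2-fold difference.

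**Figure D1:**
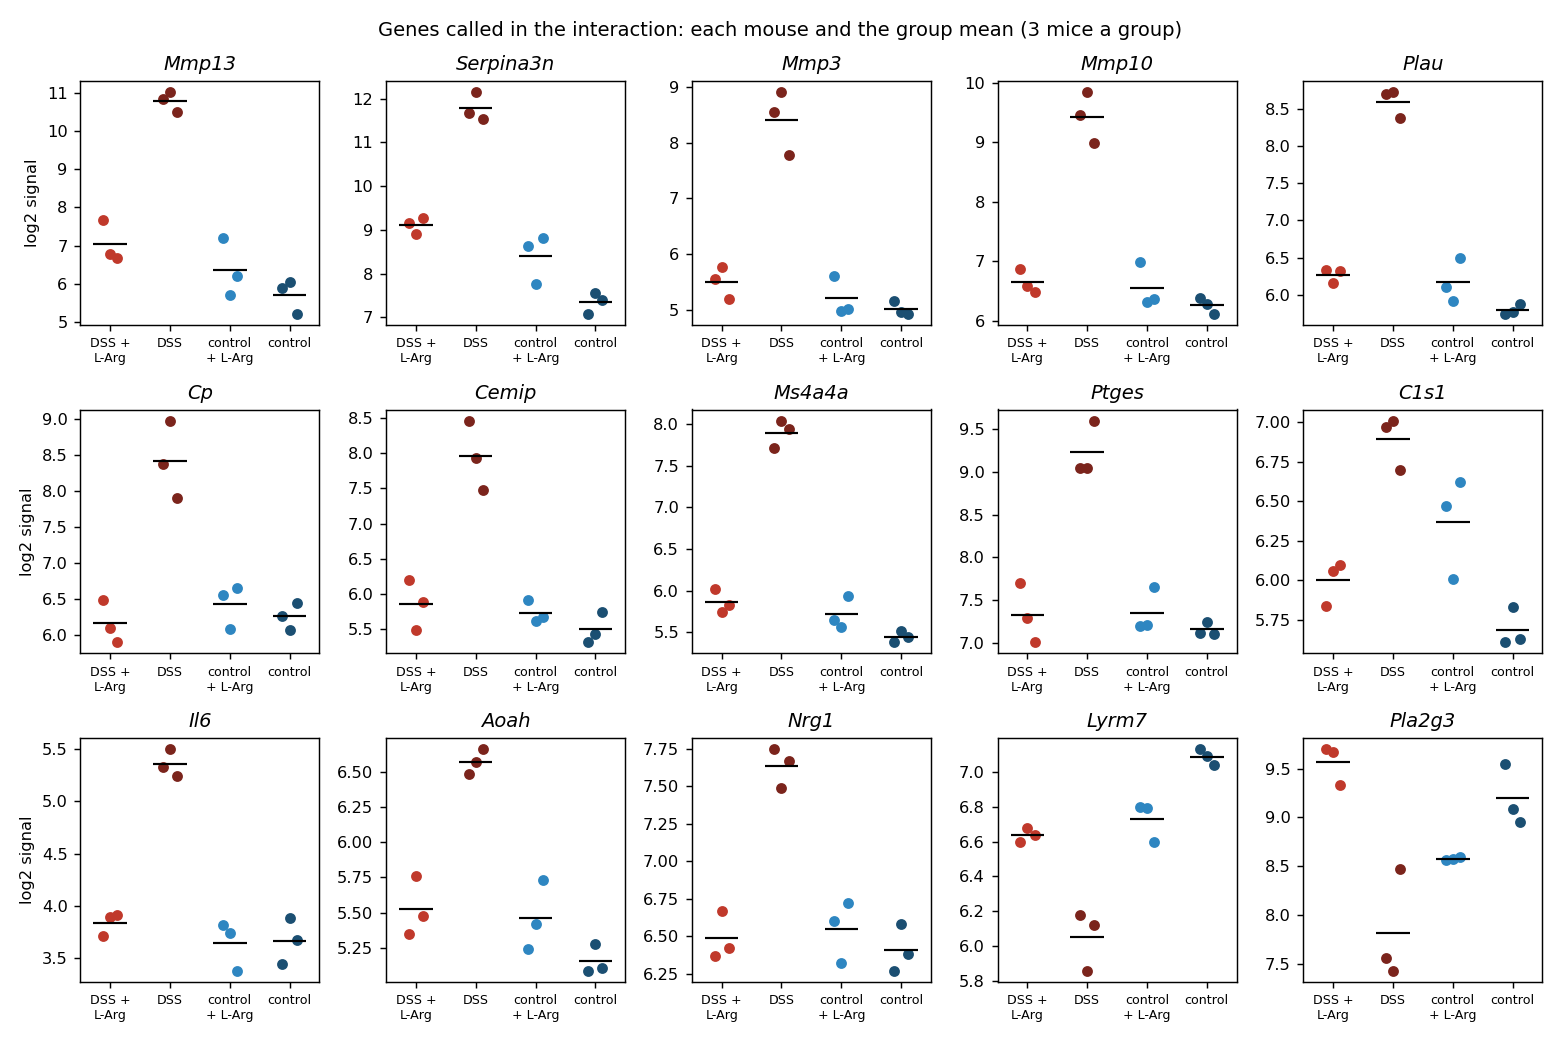
Log2 signal (vertical axes, scaled per gene) of the 15 called genes in each of the 12 arrays, by group, with points for mice and lines for the group mean. The DSS + L-Arg points lie apart from the DSS points for every gene, while the control + L-Arg and control points overlap for all but 6. How many of all genes show such gaps was not counted.

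The largest called interaction belonged to Mmp13, the interstitial collagenase that starts the breakdown of fibrillar collagen. Its signal was 7.67, 6.78 and 6.67 in DSS + L-Arg mice and 10.86, 11.03 and 10.52 in DSS mice, against 7.19, 5.71 and 6.19 in control + L-Arg mice and 5.88, 6.05 and 5.21 in control mice. The DSS arrays stood far above the other 9, and the DSS + L-Arg arrays overlapped those of uninjured mice. The L-Arg effect was -3.77 in DSS mice and 0.65 in uninjured mice, an interaction of -4.42 ± 0.52 (SE; 95% interval -5.57 to -3.27, limma adjusted p = 0.0119), or 21.4-fold. Read the other way, the DSS effect on Mmp13 was 0.67 in mice given L-Arg and 5.09 in mice given water.

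Mmp3 (stromelysin 1), which cleaves proteoglycans and activates other metalloproteinases, had the same order of groups. It measured 5.55, 5.77 and 5.20 in DSS + L-Arg mice, 8.55, 8.91 and 7.78 in DSS mice, 5.61, 4.98 and 5.02 in control + L-Arg mice and 5.15, 4.96 and 4.93 in control mice. Its L-Arg effect was -2.91 in injured and 0.19 in uninjured colon (interaction -3.10 ± 0.37, limma adjusted p = 0.0119). Mmp10 (stromelysin 2), an enzyme of migrating epithelium and macrophages, measured 6.87, 6.59 and 6.49 in DSS + L-Arg mice, 9.46, 9.84 and 8.99 in DSS mice, 6.98, 6.31 and 6.36 in control + L-Arg mice and 6.38, 6.29 and 6.12 in control mice. For both stromelysins the DSS arrays alone stood out, by over 2 log2 units from every other array. The Mmp10 interaction was -3.07 ± 0.31 (limma adjusted p = 0.00315), with a DSS effect of 0.10 in mice given L-Arg and 3.16 in mice given water.

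The 3 called metalloproteinases lie in 1 cluster on chromosome 9, and their RefSeq promoters (GRCm38.p6, plus strand, 250 bases before to 50 after the start) are shown because they share a letter match. Capitals mark TGACTCA, the core of the AP-1 site, or its reverse complement, which starts 35 bases before the start of Mmp13 (chr9:7272264-7272563), 46 before that of Mmp3 (chr9:7445572-7445871) and 63 before that of Mmp10 (chr9:7502092-7502391).
Mmp13: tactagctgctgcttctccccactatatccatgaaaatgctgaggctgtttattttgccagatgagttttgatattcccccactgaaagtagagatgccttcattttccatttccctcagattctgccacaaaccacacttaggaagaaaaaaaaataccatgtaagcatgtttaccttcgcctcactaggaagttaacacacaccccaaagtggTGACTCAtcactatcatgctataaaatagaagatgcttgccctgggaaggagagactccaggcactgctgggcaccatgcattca
Mmp3: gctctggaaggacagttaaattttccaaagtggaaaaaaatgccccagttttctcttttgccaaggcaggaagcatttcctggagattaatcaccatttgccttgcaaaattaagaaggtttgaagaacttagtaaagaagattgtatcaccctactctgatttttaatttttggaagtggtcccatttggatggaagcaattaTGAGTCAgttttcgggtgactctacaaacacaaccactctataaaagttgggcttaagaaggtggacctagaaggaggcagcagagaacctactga
Mmp10: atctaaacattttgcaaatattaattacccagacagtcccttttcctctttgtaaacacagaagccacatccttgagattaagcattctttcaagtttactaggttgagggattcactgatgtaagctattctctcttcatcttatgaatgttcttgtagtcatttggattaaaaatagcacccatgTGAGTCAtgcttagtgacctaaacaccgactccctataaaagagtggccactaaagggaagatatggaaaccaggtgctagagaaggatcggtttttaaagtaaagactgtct

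These 7 letters, searched on both strands, occurred in 5.202% of all 32851 windows of the same length. Counted per gene, 5.946% of 27025 genes held a match, so many other promoters have one. Enrichment was not tested. Among the called genes 12 had a window in the table, 11 of them with a negative interaction, and the match was present in 4 of these 11: the 3 metalloproteinases and Il6, where it lies 249 bases before the start. A letter match says nothing of whether a factor was bound in these mice. The pattern TTTCNNTTT of interferon-response elements occurred in 10.551% of windows (12.056% of genes) and in those of Aoah, Cp, Mmp13 and Mmp3. The NF-kB site GGGACTTTC, the E-box CACGTG and the C/EBP pattern TTGCNNCAA (0.353%, 7.15% and 2.079% of windows) were not in the windows of the 12.

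In the order along the chromosome the cluster is Mmp13, Mmp12, Mmp1b, Mmp3, Mmp1a, Mmp10, Mmp8, Mmp27, Mmp20 and Mmp7, and all 10 were measured. The members other than the 3 called ones are named here after their values were seen. Mmp8, the neutrophil collagenase, had an interaction of -3.19 that was not called (limma adjusted p = 0.24), with 5.17, 4.59 and 4.91 in DSS + L-Arg mice and a wide 7.89, 6.75 and 9.97 in DSS mice. Mmp12, the macrophage elastase, was at -1.05 (adjusted p = 0.172 in the same limma fit). Mmp1a, Mmp1b, Mmp20, Mmp27 and Mmp7, the last known as the matrilysin of glandular epithelium, lay between -0.26 and 0.16, so members of 1 cluster ran from an interaction of over 4 log2 units to almost 0. Timp1, a tissue inhibitor of metalloproteinases on the X chromosome and likewise named after its values were seen, had an interaction of -1.76 (limma adjusted p = 0.077), in the same direction as the enzymes.

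Plau, the urokinase-type plasminogen activator, had the lowest p-value together with Ms4a4a. It measured 6.34, 6.16 and 6.32 in DSS + L-Arg mice and 8.69, 8.72 and 8.37 in DSS mice, against 6.11, 5.92 and 6.50 in control + L-Arg mice and 5.75, 5.77 and 5.88 in control mice. The L-Arg effect was thus negative in injured colon (-2.32) and positive in uninjured colon, where the 2 sets of arrays did not overlap either (0.38, unadjusted p = 0.0227 in limma). The interaction was -2.70 ± 0.20, with a 95% interval of -3.14 to -2.25 (limma adjusted p = 0.000303).

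Serpina3n, an acute-phase inhibitor of serine proteases, showed the opposed pattern most widely. It measured 9.15, 8.90 and 9.27 in DSS + L-Arg mice, 11.68, 12.15 and 11.54 in DSS mice, 8.63, 7.77 and 8.82 in control + L-Arg mice and 7.08, 7.55 and 7.40 in control mice. L-Arg mice were lower in the injured pair (-2.69) and higher in the uninjured pair (1.06, unadjusted p = 0.00134 in limma), so the interaction of -3.75 ± 0.36 drew on both (limma adjusted p = 0.00222). C1s1, which encodes the complement protease C1s, did the same on a smaller scale, with 5.84, 6.06 and 6.10 in DSS + L-Arg mice, 6.97, 7.01 and 6.70 in DSS mice, 6.47, 6.01 and 6.62 in control + L-Arg mice and 5.61, 5.83 and 5.63 in control mice. Its L-Arg effects were -0.89 and 0.68, and its interaction -1.57 ± 0.22 (limma adjusted p = 0.0301), of which the injured pair gave 56.9%, the smallest part among the called genes.

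Cp, which encodes ceruloplasmin, the copper-carrying ferroxidase of plasma and macrophages, was at 6.48, 6.10 and 5.90 in DSS + L-Arg mice and 8.38, 8.98 and 7.90 in DSS mice, and between 6.07 and 6.66 in all 6 uninjured mice (interaction -2.43 ± 0.36, limma adjusted p = 0.0357). Cemip, a protein that binds hyaluronan and drives its breakdown, was at 6.20, 5.49 and 5.89 in DSS + L-Arg mice and 8.46, 7.93 and 7.48 in DSS mice, and between 5.32 and 5.92 without injury (interaction -2.33 ± 0.34, limma adjusted p = 0.0333). Neither gene separated control + L-Arg from control mice, and for both only the DSS arrays stood apart from the other 9.

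Of the cytokines, Il6 was the called gene. This cytokine of fibroblasts and macrophages drives the acute-phase response and was among the dimmest of the 15, at 3.71, 3.89 and 3.91 in DSS + L-Arg mice, 5.33, 5.50 and 5.24 in DSS mice, 3.82, 3.74 and 3.38 in control + L-Arg mice and 3.44, 3.88 and 3.67 in control mice. The DSS arrays were the only ones above 5, and the L-Arg effect in uninjured colon was -0.01. The interaction was -1.51 ± 0.20 (limma adjusted p = 0.0245). A filter on dim genes removes Il6, so its call holds only where dim genes are kept.

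Lipid mediators gave called genes in both directions. Ptges, the inducible prostaglandin E synthase that acts after the cyclooxygenases, was at 7.70, 7.29 and 7.01 in DSS + L-Arg mice, 9.05, 9.05 and 9.60 in DSS mice, 7.20, 7.21 and 7.66 in control + L-Arg mice and 7.12, 7.25 and 7.11 in control mice. Its interaction was -2.10 ± 0.28 (limma adjusted p = 0.0255), and its DSS effect -0.02 with L-Arg and 2.07 with water. Pla2g3, a secreted phospholipase A2 that frees fatty acids from membrane lipids, ran the other way. It was at 9.70, 9.67 and 9.33 in DSS + L-Arg mice, 7.56, 7.43 and 8.47 in DSS mice, 8.56, 8.57 and 8.59 in control + L-Arg mice and 9.55, 9.09 and 8.95 in control mice. L-Arg mice were higher than water mice in the injured pair (1.74) and lower in the uninjured pair (-0.62, unadjusted p = 0.0251 in limma), without overlap in either. The interaction was 2.37 ± 0.34 (limma adjusted p = 0.0333), and the DSS effect changed sign, 0.99 with L-Arg and -1.37 with water. Over the whole list of 17 genes of prostaglandin synthesis and breakdown the median interaction was 0.00. At an unadjusted p under 0.05 it had 3 positive and 3 negative (against 6.62% and 4.19% of all genes), so the list had no common direction.

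Ms4a4a, a membrane protein of the MS4A family known from human macrophages, had an adjusted p-value as low as that of Plau. It measured 6.02, 5.74 and 5.83 in DSS + L-Arg mice and 7.71, 8.04 and 7.94 in DSS mice, and between 5.38 and 5.94 in all uninjured mice, with an interaction of -2.30 ± 0.17 (limma adjusted p = 0.000303). Aoah, the acyloxyacyl hydrolase with which myeloid cells inactivate bacterial lipopolysaccharide, measured 5.35, 5.76 and 5.48 in DSS + L-Arg mice and 6.48, 6.57 and 6.66 in DSS mice, against 5.24, 5.42 and 5.73 in control + L-Arg mice and 5.09, 5.28 and 5.11 in control mice (interaction -1.34 ± 0.19, limma adjusted p = 0.0333). In whole tissue, fewer cells of a type and less RNA per cell cannot be told apart, here and for every gene and list below.

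Nrg1, a growth factor of the epidermal growth factor family that stromal cells make after epithelial injury, was at 6.37, 6.67 and 6.42 in DSS + L-Arg mice and 7.75, 7.49 and 7.67 in DSS mice, and between 6.27 and 6.72 without injury (interaction -1.29 ± 0.19, limma adjusted p = 0.0333). Lyrm7, an assembly factor of mitochondrial complex III, had the smallest called interaction, 0.94 ± 0.14 (limma adjusted p = 0.0356). It was at 6.60, 6.68 and 6.64 in DSS + L-Arg mice and 6.18, 5.86 and 6.12 in DSS mice, a positive L-Arg effect of 0.59, and at 6.80, 6.79 and 6.60 in control + L-Arg mice and 7.13, 7.09 and 7.04 in control mice, a negative one of -0.35.

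Several genes lay just outside the threshold, and those named here by list, by p-value or by opposed L-Arg effects had a limma adjusted p of 0.0503. Ngp, a granule protein of maturing neutrophils, had the largest size of all genes named here, -4.77 ± 0.76, with 5.75, 5.27 and 5.77 in DSS + L-Arg mice and 9.50, 9.07 and 11.58 in DSS mice. Its DSS arrays differed among themselves by over 2 log2 units, and its error was wide. The others were the macrophage scavenger receptor Msr1 (-1.49), the mannose receptor Mrc1 (-1.62), Klhl6 (-0.76), a lymphocyte gene at a low signal, and Dgkh (0.94), a diacylglycerol kinase. For Klhl6 and Dgkh the L-Arg effects opposed each other, at -0.50 and 0.26 for Klhl6 and 0.48 and -0.46 for Dgkh in injured and uninjured mice.

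With 2 genes called as positive, the next positive genes by p-value were not called and are given as values. Besides Dgkh they were 9130230L23Rik (1.07), the endogenous retroviral envelope gene Syna (1.49), the aldehyde dehydrogenases Aldh3b3 (1.15) and Aldh3b2 (1.68), the cholesterol enzymes Sqle (1.02), Dhcr7 (1.08) and Tm7sf2 (0.83), the mitochondrial ribosomal protein gene Mrpl14 (0.83) and Stpg1 (0.81), with limma adjusted p-values between 0.0578 and 0.08. Aldh3b2 measured 10.01, 9.90 and 9.69 in DSS + L-Arg mice, 8.98, 7.94 and 8.50 in DSS mice, 9.48, 9.78 and 9.20 in control + L-Arg mice and 9.86, 9.73 and 9.72 in control mice. Its lowest arrays were those of DSS mice, the mirror image of the metalloproteinases.

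The 2 L-Arg effects share no array. In injured mice 127 genes were called (0.637%), 23 higher (0.115%) and 104 lower (0.522%), and in uninjured mice 0 were called by limma, with 686 at an unadjusted p under 0.05 (3.44%). That contrast of counts is not a test of a difference, which the interaction gives: of the 127 genes it was called for 15 and had an unadjusted p under 0.05 for all 127. The interaction shares the injured arrays with the effect that chose these genes, so the second count describes them and supports nothing. The median size of the L-Arg effect over the 127 was 1.22 and that of the interaction 1.49, and in 104 the uninjured mice had the opposite sign. The standard error is larger for an interaction (median 0.18 over all genes) than for a single L-Arg effect (median 0.12), so at a given size fewer interactions can be called.

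**Figure D2:**
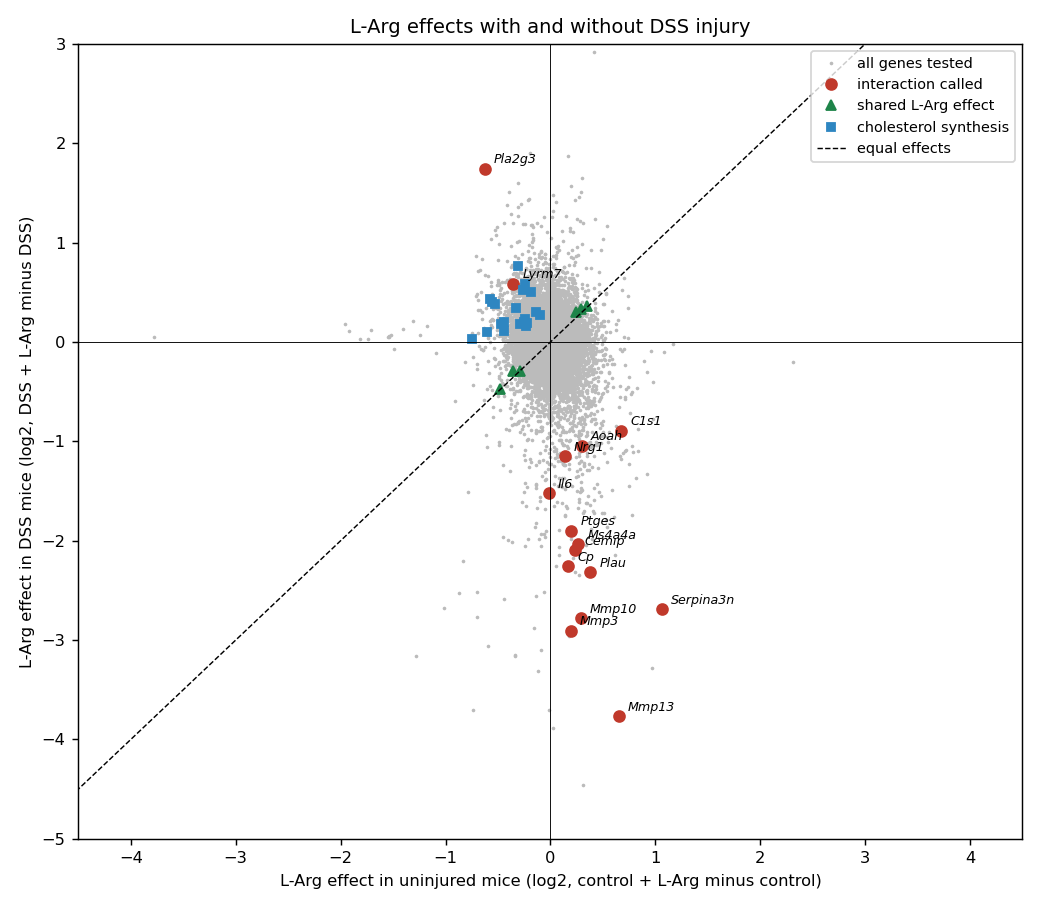
L-Arg effect in DSS mice (vertical axis, log2) against the L-Arg effect in uninjured mice (horizontal axis, log2) for all genes tested, with the 15 called genes, the cholesterol synthesis genes and the genes with a shared L-Arg effect marked and a dashed line for equal effects. The called genes lie away from that line, Mmp13 farthest at -3.77 and 0.65, and the cholesterol synthesis genes lie to the upper left of 0.

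Over all genes the L-Arg effects in injured and uninjured mice had the same sign in 47.67%, with a Pearson r of -0.14 across genes, which share arrays and are not independent. Genes at an unadjusted p under 0.05 in both effects numbered 135, of which 23 had the same sign and 112 opposite signs. The genes with the clearest shared effect were small in size: Npc1, which carries cholesterol out of lysosomes, had effects of -0.47 in DSS mice and -0.48 in uninjured mice, Tiparp, a poly(ADP-ribose) polymerase gene, -0.29 and -0.29, Kctd9 -0.29 and -0.35, the zinc transporter gene Slc39a12 0.30 and 0.24, Trav7d-4 0.36 and 0.35, and Mir489 0.33 and 0.30. Their interactions were between 0.00 and 0.06, and none of their L-Arg effects was called.

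Read as a difference of DSS effects, the same interactions give the size of the injury response with and without L-Arg. The DSS effect was called for 61 genes in mice given L-Arg (0.306%), 40 higher (0.201%) and 21 lower (0.105%). In mice given water it was called for 803 (4.03%), 359 higher (1.8%) and 444 lower (2.23%). This contrast of counts is not a test of a difference either, and it depends on the threshold. In the limma fit with mouse number as a block, 29 genes were called with L-Arg and 769 with water. At an unadjusted p under 0.05 in that same fit, 3051 genes passed with L-Arg and 3886 with water. All 15 genes with a called interaction were called in DSS against control mice, and 0 of them in DSS + L-Arg against control + L-Arg mice. The interaction that chose these 15 holds both DSS effects, so these counts describe them only. The 359 genes that rose in mice given water had a median DSS effect of 0.15 in mice given L-Arg and 1.08 in mice given water. Of these, 254 kept the sign in mice given L-Arg, 89 at an unadjusted p under 0.05 (against 8.95% of all genes), and 12 were called there too. The 444 genes that fell had medians of -0.26 with L-Arg and -0.72 with water, and 381 kept the sign.

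Choosing genes by their effect in mice given water favours larger effects there, so the opposite choice is given beside it. The 40 genes that rose with DSS in mice given L-Arg had a median effect of 0.97 there and 0.44 in mice given water, and the 21 that fell had -0.98 and -0.56. Signs were shared by 38 of the 40 and 19 of the 21. The interaction had an unadjusted p under 0.05 in 25 of those 40, in 8 of those 21, in 260 of the 359 and in 226 of the 444 (10.8% of all genes). It shares arrays with the DSS effect that chose each set, so these counts describe the sets and support nothing.

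**Figure D3:**
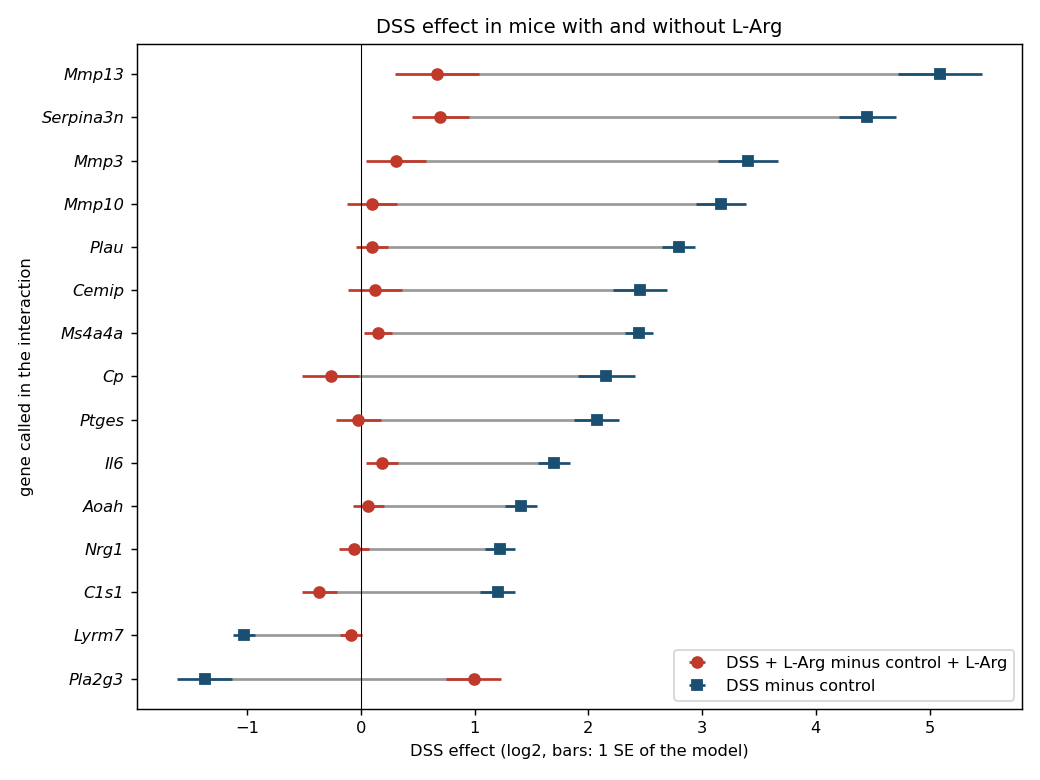
DSS effect (horizontal axis, log2) of the 15 called genes in mice given L-Arg (circles) and in mice given water (squares), with bars of 1 SE of the model. The circles lie between -0.37 and 0.99 and the squares between -1.37 and 5.09, and every circle is nearer to 0 than the square of the same gene.

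At a looser threshold, an unadjusted p under 0.01 with an interaction of over 2-fold, 209 genes passed (1.05%), 171 of them negative (0.858%) and 38 positive (0.191%). Of the 171 negative genes 122 were called higher with DSS in mice given water (1.8% of all genes). A smaller DSS effect with L-Arg was found in 153, and the injured pair gave a median 79.5% of the interaction. Of the 38 positive genes 19 were called lower with DSS in mice given water (2.23% of all genes). A smaller DSS effect with L-Arg was found in 33, and the injured pair gave a median 67.3%. The L-Arg effects had opposite signs in 158 of the 171 and 37 of the 38, and the same sign in 47.67% of all genes. A filter on the difference of the 2 effects favours opposite signs and unequal DSS effects, so these counts only describe the genes. Larger negative interactions were more numerous than positive ones (171 against 38). At an unadjusted p under 0.05 alone (10.8% of genes) positive ones led, with 1319 (6.62%) against 835 (4.19%). That last split depended on scaling, with 1124 positive and 1084 negative after a further quantile normalization. The median interaction of all genes was 0.06, so small values below are read against it.

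Lists of genes for cell types and pathways were described by counts at an unadjusted p under 0.05, since few members were called. Of all genes 6.62% were positive and 4.19% negative at that p. At any p, 12174 of the 19938 genes had an interaction above 0 and 7759 below. The counts of every list below are read against these. In the monocyte and macrophage list all 23 measured members were below 0, 18 of them at an unadjusted p under 0.05 (against 4.19% of all genes), with a median interaction of -1.49. Relative to the control mean, the median of the list was 0.30, 0.30 and 0.18 in DSS + L-Arg mice, 1.03, 1.34 and 1.47 in DSS mice, 0.24, 0.02 and 0.71 in control + L-Arg mice and -0.10, 0.09 and 0.02 in control mice. Only DSS mice stood apart. Its members with the lowest p-values were Msr1, Mrc1 and Fcgr2b, an Fc receptor gene, at 6.75, 6.99 and 6.69 in DSS + L-Arg mice, 8.19, 8.22 and 9.13 in DSS mice, 6.72, 6.43 and 7.39 in control + L-Arg mice and 6.22, 6.65 and 6.47 in control mice (interaction -2.10, limma adjusted p = 0.077).

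The neutrophil list had a larger median, -1.85 over 22 members, but 12 at an unadjusted p under 0.05 and 20 below 0. Its median per array was 0.52, 0.13 and 0.24 in DSS + L-Arg mice and 1.86, 1.35 and 3.91 in DSS mice, while the uninjured mice lay between -0.22 and 0.48. The third DSS mouse was far above the other DSS mice, and without it the list median was -1.06, with 12 members still at that p. Lcn2, the siderophore-binding protein lipocalin 2, made by neutrophils and inflamed epithelium, measured 8.51, 8.20 and 8.53 in DSS + L-Arg mice, 11.57, 12.02 and 12.75 in DSS mice, 8.74, 6.61 and 7.95 in control + L-Arg mice and 7.36, 8.27 and 7.69 in control mice (interaction -3.69, limma adjusted p = 0.0679). The calprotectin genes S100a8 and S100a9, named after their values were seen, were at -3.01 and -2.83 and were not called (limma adjusted p = 0.265 and 0.192).

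**Figure D4:**
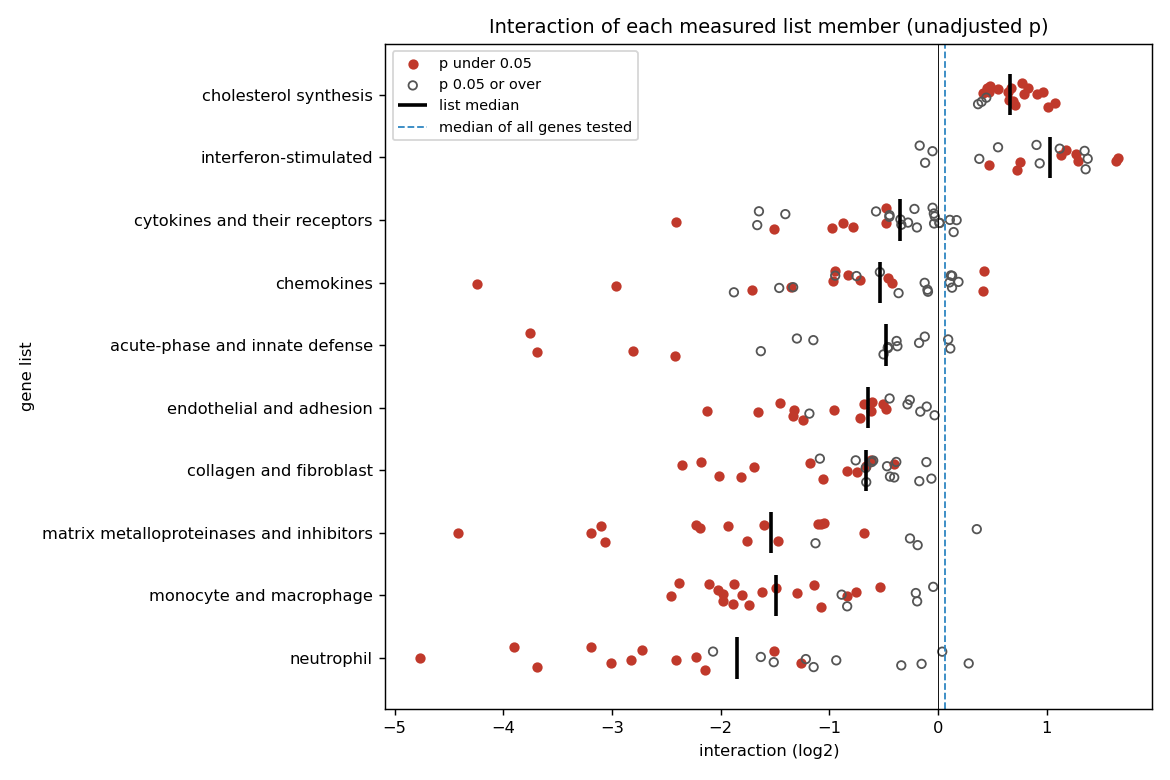
Interaction (horizontal axis, log2) of each measured member of 10 gene lists, filled at an unadjusted p under 0.05 and open otherwise, with the median of each list and of all genes as lines. The macrophage, collagen and endothelial members all lie below 0 and the cholesterol synthesis members all lie above 0.

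In the list of metalloproteinases and their inhibitors 17 of 18 measured members were below 0, and the median was -1.54. At an unadjusted p under 0.05 there were 14 negative (against 4.19% of all genes), and 3 were called. The list median was 0.29, 0.28 and 0.18 in DSS + L-Arg mice, 1.48, 1.46 and 1.22 in DSS mice, 0.20, 0.00 and 0.23 in control + L-Arg mice and -0.03, 0.04 and -0.03 in control mice. The acute-phase and innate defense list had 14 of 16 below 0 and 4 at that p, 2 of them called. Its median of -0.48 was -0.95 without the second control mouse, -0.76 without the second control + L-Arg mouse and -1.22 with dim genes left out. Saa3, an acute-phase serum amyloid gene named after its values were seen, was at 9.44, 8.53 and 8.93 in DSS + L-Arg mice and 11.95, 12.04 and 12.37 in DSS mice (interaction -2.81, limma adjusted p = 0.08).

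Chemokines were negative in 20 of 27 (median -0.54). At an unadjusted p under 0.05, 10 were negative and 2 positive (against 4.19% and 6.62% of all genes). Cxcl13, which draws B cells into lymphoid follicles, was at 8.29, 7.71 and 7.66 in DSS + L-Arg mice, 11.53, 10.91 and 11.05 in DSS mice, 10.18, 6.92 and 9.45 in control + L-Arg mice and 8.17, 7.13 and 8.35 in control mice. Its interaction of -4.24 was not called (limma adjusted p = 0.148), and its control + L-Arg mice spread over more than 3 log2 units. Among cytokines and their receptors 22 of 27 were negative, 7 at that p with Il6 called (median -0.35), and this count fell to 3 or 4 without any of 5 arrays in turn (control 3, control + L-Arg 1 or 3, DSS + L-Arg 2 or 3). The cytokine median was -0.57 without the first DSS mouse and -0.22 without the third.

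Stromal lists ran the same way as the myeloid ones, with smaller medians. All 25 collagen and fibroblast genes were below 0, 12 at an unadjusted p under 0.05 (median -0.66). All 20 endothelial and adhesion genes were below 0, 13 at that p (median -0.65), against 4.19% of all genes. In both lists the L-Arg effect was negative in injured mice (medians -0.37 and -0.44) and positive in uninjured mice (0.23 and 0.24). Relative to the control mean, the list medians of DSS mice were 0.57, 0.46 and 0.13 for collagen and 0.65, 0.66 and 0.07 for endothelial genes. The 2 uninjured groups overlapped in both lists. For collagen, control + L-Arg mice were at 0.11, -0.05 and 0.58 and control mice at -0.11, -0.02 and 0.14. For endothelial genes they were at 0.29, -0.05 and 0.43 and at 0.04, -0.14 and 0.02. For collagen the third DSS mouse lay below the second DSS + L-Arg mouse (0.20). Without single arrays the counts at that p were 8 to 18 and 10 to 15, and the medians -0.84 to -0.47 and -0.81 to -0.54. Dcn, the collagen-binding proteoglycan decorin, measured 10.48, 10.84 and 10.40 in DSS + L-Arg mice, 12.13, 12.34 and 11.36 in DSS mice, 11.39, 10.66 and 11.61 in control + L-Arg mice and 10.37, 10.48 and 10.36 in control mice (interaction -2.19, limma adjusted p = 0.0679). Vcam1, the adhesion molecule by which activated endothelium holds leukocytes, measured 6.19, 6.28 and 6.12 in DSS + L-Arg mice, 7.33, 7.06 and 6.81 in DSS mice, 6.59, 6.05 and 6.71 in control + L-Arg mice and 5.97, 5.89 and 6.08 in control mice (interaction -1.34, limma adjusted p = 0.0706). In Dcn, Vcam1 and Cxcl13 alike the second control + L-Arg mouse was the lowest of its group.

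Cholesterol synthesis ran the other way. All 20 measured members were above 0 and 17 had an unadjusted p under 0.05 (against 6.62% of all genes), with a median of 0.66, although none was called. Here the uninjured mice contributed more than for the called genes: the median L-Arg effect was 0.25 in DSS mice, with 9 members positive at that p (7.99% of all genes), and -0.30 in uninjured mice, with 14 negative (2.11% of all genes). Relative to the control mean the list median was 0.40, 0.13 and 0.25 in DSS + L-Arg mice, -0.04, -0.15 and 0.17 in DSS mice, -0.22, -0.33 and -0.35 in control + L-Arg mice and 0.03, -0.01 and 0.01 in control mice. The control + L-Arg mice were thus below every other array and the DSS + L-Arg mice above all but 1.

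Sqle, the squalene epoxidase at the first oxygen-dependent step of sterol synthesis, measured 10.34, 10.31 and 10.31 in DSS + L-Arg mice, 10.02, 9.62 and 10.02 in DSS mice, 9.68, 9.31 and 9.43 in control + L-Arg mice and 10.12, 10.09 and 9.95 in control mice. It rose with DSS in mice given L-Arg (0.85, limma adjusted p = 0.0379) and was at -0.17 in mice given water. Dhcr7, the last enzyme of the pathway, measured 10.64, 10.77 and 10.75 in DSS + L-Arg mice, 10.26, 9.78 and 9.83 in DSS mice, 10.45, 10.49 and 10.14 in control + L-Arg mice and 10.73, 10.70 and 10.59 in control mice. It rose with L-Arg in injured colon (0.77, limma adjusted p = 0.0359), while the uninjured effect was -0.31. Insig1, a sterol-responsive regulator of the pathway named after its values were seen, had nearly all of its interaction of 0.77 in the uninjured pair, with L-Arg effects of 0.03 in DSS mice and -0.75 in uninjured mice.

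**Figure D5:**
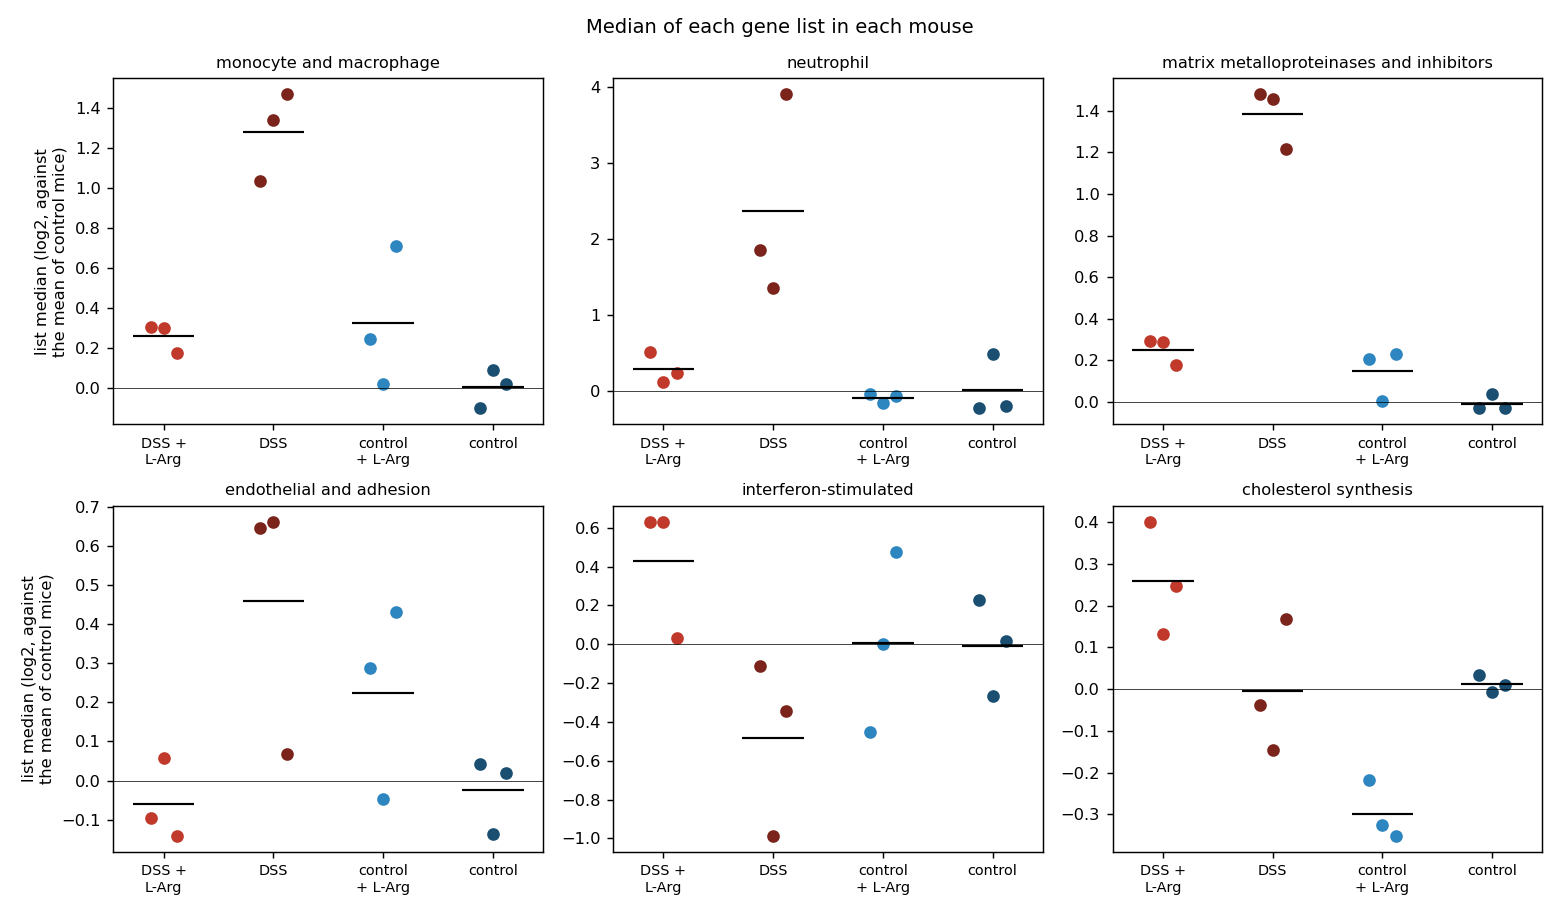
Median of 6 gene lists in each mouse (vertical axis, log2 relative to the mean of control mice), by group, with lines for the group mean. DSS mice stand apart in the macrophage, neutrophil and metalloproteinase lists, and control + L-Arg mice lie lowest in the cholesterol synthesis list.

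Interferon-stimulated genes also ran positive, in 17 of 20, with 9 at an unadjusted p under 0.05 (against 6.62% of all genes). Their median interaction was 1.03, but 0.59 without the first control + L-Arg mouse and 0.65 with array weights. The list median was 0.63, 0.63 and 0.03 in DSS + L-Arg mice, -0.11, -0.99 and -0.34 in DSS mice, -0.45, 0.00 and 0.48 in control + L-Arg mice and 0.23, -0.26 and 0.02 in control mice, so the groups overlapped widely outside the injured pair. Irf7, the interferon regulatory factor that amplifies interferon production, measured 11.39, 11.54 and 11.50 in DSS + L-Arg mice, 10.68, 9.37 and 10.04 in DSS mice, 10.66, 11.58 and 11.45 in control + L-Arg mice and 11.56, 11.35 and 11.40 in control mice (interaction 1.65, limma adjusted p = 0.182). The count of 9 was 4 without the first control + L-Arg mouse, 5 without the first control mouse or without the first or the second DSS + L-Arg mouse, and up to 13 without the third control + L-Arg mouse.

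None of the genes of L-Arg metabolism that the study also measured by RT-PCR had a called interaction. Nos2, the inducible nitric oxide synthase, measured 10.23, 8.97 and 8.44 in DSS + L-Arg mice, 8.81, 9.46 and 11.00 in DSS mice, 6.30, 6.47 and 6.38 in control + L-Arg mice and 6.84, 7.57 and 6.06 in control mice. Its DSS effect was 2.83 with L-Arg (limma adjusted p = 0.0666) and 2.93 with water (limma adjusted p = 0.0173), an interaction of -0.10 with a 95% interval of -1.86 to 1.65, which is wide enough to hold a more than 3-fold difference either way. Injured mice were above all uninjured mice under both drinks.

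Arg1, arginase 1 of macrophages, had an interaction of -0.94 (95% interval -2.32 to 0.45) that leaned on the third DSS mouse, at 8.40 against 6.06 and 6.54 in the other DSS mice. Arg2, the mitochondrial arginase, was at 0.01 (-1.33 to 1.35), Odc1, the ornithine decarboxylase of polyamine synthesis, at 0.25 (-0.73 to 1.24), Oat, the ornithine aminotransferase, at 0.14 (-0.49 to 0.78), and Slc7a1, a cationic amino acid transporter, at 0.01 (-0.42 to 0.43). Of these intervals that of Slc7a1 was the narrowest, and all of them held 0. Slc7a2, the inducible transporter that carries L-Arg into macrophages and epithelium, measured 5.16, 5.11 and 5.08 in DSS + L-Arg mice, 5.40, 5.67 and 6.26 in DSS mice, 5.09, 5.22 and 5.45 in control + L-Arg mice and 5.22, 5.28 and 5.07 in control mice (interaction -0.72, 95% interval -1.28 to -0.16, limma adjusted p = 0.345). The direction was that of the called genes, at a signal near the bottom of the scale.

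In the list of 22 genes of arginine, nitric oxide and the urea cycle 3 were positive and 2 negative at an unadjusted p under 0.05. In the polyamine list of 11 genes 2 were positive and 0 negative. Of all genes 6.62% were positive and 4.19% negative at that p, so counts this small say little about either list. Gch1, whose product makes the tetrahydrobiopterin that nitric oxide synthases need, measured 7.77, 7.50 and 7.81 in DSS + L-Arg mice, 6.70, 7.16 and 7.52 in DSS mice, 6.95, 6.54 and 6.39 in control + L-Arg mice and 7.18, 7.23 and 7.16 in control mice (interaction 1.13, limma adjusted p = 0.177). Smox, the spermine oxidase, rose with DSS in mice given L-Arg (0.77, limma adjusted p = 0.0381) and was at 0.01 in mice given water, an interaction of 0.76 that was not called (limma adjusted p = 0.176).

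Several epithelial and lymphocyte lists had few members at an unadjusted p under 0.05 (against 10.8% of all genes). These were 1 of 16 goblet cell genes, 1 of 24 absorptive colonocyte genes, 0 of 18 crypt stem cell genes, 0 of 24 cell cycle genes, 1 of 17 T and NK cell genes and 0 of 15 B and plasma cell genes. The counts were 4 for goblet cell genes without the first DSS mouse, for crypt stem cell genes without the second and for absorptive colonocyte genes without the third. The median of the cell cycle genes, 0.12, was -0.34 without the second DSS mouse and 0.57 without the third, and that of the goblet cell genes, 0.24, was 0.02 without the third. Tuft cell genes had 2 positive and 1 negative of 15.

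The list of epithelial genes of injury had 3 positive and 3 negative of 20 at that p (against 6.62% and 4.19% of all genes) and thus no common direction. Plau was the called member. Sprr2h, a cornified-envelope gene, was at -1.67 (limma adjusted p = 0.355) and Hbegf, a growth factor of the epidermal growth factor family, at 0.73 (limma adjusted p = 0.383). Without single arrays the list had 1 to 3 positive and 2 or 3 negative members at that p. The 8 MHC class II genes were all negative (median -0.56) with 0 at that p. Their median was -0.19 without the first control + L-Arg mouse, -0.22 without the first DSS mouse and -1.001 without the second control + L-Arg mouse, in which case 3 passed. Xenobiotic and glutathione genes had 7 positive and 1 negative of 26 (median 0.17), and their median was -0.01 without the first control + L-Arg mouse and 0.29 without the second.

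The array medians lay between 6.49 and 6.64. Tff3, the trefoil peptide of goblet cells and a marker of colonic epithelium, was bright in all groups, averaging 13.53 ± 0.05 in DSS + L-Arg mice, 13.18 ± 0.32 in DSS mice, 13.29 ± 0.15 in control + L-Arg mice and 13.36 ± 0.07 in control mice (SD, n = 3 each). Some features of the arrays crossed the groups. Relative to the control mean, the median of 18 smooth muscle genes was -1.12, -0.27 and -0.92 in DSS + L-Arg mice, -0.67, -0.74 and -1.12 in DSS mice, 0.29, -0.64 and 1.08 in control + L-Arg mice and -0.30, -0.40 and 0.71 in control mice. The list was lower in injured than in most uninjured mice and had a median interaction of -0.06. Posterior Hox genes, which mark position along the colon, had list medians of -0.66 to 0.31 over the arrays, with low and high arrays in the DSS + L-Arg, control + L-Arg and control groups (median interaction -0.04). The part of either in the called genes was not tested beyond a fit with it as a covariate, which gave 6 positive and 16 negative calls with the Hox mean and 18 and 111 with the smooth muscle mean. The second control mouse carried transcripts of male accessory glands, a list whose median was 2.41 in that array and -1.62 to -1.06 in the other 11. All 16 genes of that list had a positive interaction (median 1.53), with 1 at an unadjusted p under 0.05, and none of the called genes belongs to it.

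Summed over all genes, the interaction took 10.94% of the variance among arrays, DSS 29.09%, L-Arg 8.586% and the differences within groups 51.39% (8 degrees of freedom). A term takes some share even where it has no effect, because differences between mice enter it too. The shares of L-Arg and of the interaction are thus not net of noise. Calls of the interaction depended on single arrays. Leaving out each of the 12 in turn gave 4 to 111 negative and 0 to 24 positive calls, with most without the second control + L-Arg mouse (111 and 24), the third DSS mouse (63 and 19) or the first DSS mouse (40 and 13), and fewest negative without the third DSS + L-Arg mouse (4). Plau, Ms4a4a, Mmp10 and Serpina3n were called in all 12 of these fits, Mmp13 and Mmp3 in 10, and the other 9 in 4 to 6, and no called gene changed the sign of its interaction. With mouse number as a block in all groups, 9 of the 15 remained called and 7 other genes joined them. C1s1, Cp, Lyrm7, Nrg1, Pla2g3 and Ptges were no longer called (limma adjusted p between 0.0524 and 0.0643), so neither of the 2 positive genes was kept. With the block in uninjured mice alone, where same-numbered mice deviated together, 7 remained: Plau, Ms4a4a, Serpina3n, Mmp10, Mmp13, Mmp3 and Il6.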

How the data were processed

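Colon RNA of 12 mice was hybridised to Affymetrix mouse Gene ST arrays, 1 array per mouse. Per the submitters' processing notes, the authors used Affymetrix Expression Console 1.1 with RMA, which corrects background, quantile-normalizes and summarizes probes, with genome build mm9. The deposited values are log2 signals per probe set, used as they stand. Arrays have no read depth, and their number limits the precision.

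Groups and mouse numbers came from the titles. Of 35556 probe sets, 21789 carried 1 gene in the platform annotation, 1621 several and 12146 none, and only the first kind was used, which left 19938 genes (999 with more than 1 probe set, represented by the brightest). Interaction and simple effects were contrasts of 1 limma model with a mean per group (limma 3.58.1, R 4.3.3), adjusted by Benjamini-Hochberg over all genes. Tables and plots were made in Python 3.11.15 with pandas 2.3.3 and matplotlib 3.10.9. On simulated data of the same size the interaction step found 69.3% of genes changed 2-fold and 97% of genes changed 4-fold. That simulation drew independent noise with the same spread in all groups, held no DSS effect and moved the DSS + L-Arg group alone. The real arrays were less even, with array weights from 0.402 to 1.998, so the power in these data was not measured. Alternatives changed the scaling, the filter on low values, the probe set rule, the model, covariates and samples, and those on simple effects, gene lists and the block in uninjured mice were added after seeing the data.

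The text names all called genes, the positive genes of lowest p up to 12, genes with opposed or shared L-Arg effects (6 each), the lowest-p members of the lists, and the RT-PCR genes. The members and the gene lists were chosen with earlier results of these data known. Nothing in the labels says whether mice shared cages, so p-values measure the spread between these mice. Mouse numbers recur in the groups. Same-numbered mice deviated together in control + L-Arg against control (correlations 0.205, 0.477 and 0.261) but not throughout the other pairs of groups (lowest -0.355), so the main model has no replicate block. Promoters came from RefSeq (GRCm38.p6) and were matched by symbol, with a window for 12 of the 15 called genes (not for Nrg1, Plau and Pla2g3).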

Additional observations from a re-analysis of the deposited data

Results flagged for a closer look

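For 15 genes the effect of L-Arg differed between injured and uninjured mice by a test of the difference itself, the interaction in limma at an adjusted p under 0.05 over all genes. The difference of the L-Arg effects, DSS mice minus uninjured mice, was -4.42 for Mmp13, -3.75 for Serpina3n, -3.10 for Mmp3 and -3.07 for Mmp10. It was -2.70 for Plau, -2.43 for Cp, -2.33 for Cemip, -2.30 for Ms4a4a and -2.10 for Ptges, and -1.57 for C1s1, -1.51 for Il6, -1.34 for Aoah and -1.29 for Nrg1. For Lyrm7 it was 0.94 and for Pla2g3 2.37. Without each of the 12 arrays in turn, 9 of the 15 were called in 4 to 6 of the fits, and only Plau, Ms4a4a, Mmp10 and Serpina3n in all.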

How the results depend on the processing

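The 15 called genes kept the sign of their interaction in every setting run. The counts of calls did not keep their size. Against 2 positive and 13 negative calls, centring each array on its median gave 4 and 20, a further quantile normalization 1 positive, averaging over probe sets 20 negative, all probe sets 0 positive, array weights 22 and 71, linear signals 1 and 4, no moderation 0 and 2, a separate spread per group 0 and 0 (with 1414 genes at an unadjusted p under 0.05), the posterior Hox covariate 6 positive and the smooth muscle covariate 18 and 111. For these the cause was not tested. At p under 0.01 and over 2-fold (38 positive and 171 negative), all probe sets gave 69 and 268, a separate spread 11 and 55, and no moderation 24 positive.

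Without 1 array at a time, calls ranged over 0 to 24 positive and 4 to 111 negative, those at p under 0.01 and over 2-fold over 21 to 97 and 133 to 262, the calls of L-Arg in DSS mice over 18 to 323 and in uninjured mice over 0 to 1, and those of DSS over 0 to 206 with L-Arg and 197 to 1398 with water. The same-sign share ranged over 43.85% to 51.83%, and the variance shares over 25.45% to 31.85% (DSS), 7.058% to 10.74% (L-Arg) and 9.731% to 13.65% (interaction). Without dim genes the same-sign share was 45.09% and the DSS share 30.88%.

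With mouse number as a replicate block there were 2 positive and 14 negative interactions, 9 of them among the 15, and 29 rather than 61 calls of DSS in mice given L-Arg. With the block in uninjured mice alone there were 0 positive and 12 negative interactions, 7 of them among the 15, 74 rather than 127 calls of L-Arg in DSS mice and 123 of DSS in mice given L-Arg. The labels do not say what a number shares.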

Other observations

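Of the 38 positive genes at an unadjusted p under 0.01 and over 2-fold, 8 are named here after their values were seen. None was called, no enrichment was tested, and each interaction is a log2 value. Scd1, the stearoyl-CoA desaturase, was at 1.45, the fatty acid elongase Elovl6 at 1.04, the monoacylglycerol acyltransferase Mogat2 at 1.57 and the carboxylesterase Ces2a at 1.63. Dio1, a deiodinase of thyroid hormone, was at 2.11, Cox7a1, a subunit of cytochrome c oxidase, at 1.66, the glutathione transferase Gstt1 at 1.15 and Mmab, which acts in vitamin B12 metabolism, at 1.07. By list, 3 of 22 genes of fatty acid oxidation and ketogenesis and 2 of 30 nuclear genes of oxidative phosphorylation were positive at an unadjusted p under 0.05, against 6.62% of all genes. Without single arrays the first count ranged from 1 to 7 and the second from 1 to 6.

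Pate14, expressed in male accessory glands, had an interaction of 3.83 at an unadjusted p of 0.0469 in limma (adjusted p = 0.453). It was high in 2 of 3 control mice (9.61 and 11.03, with 4.34 in the other) and between 4.24 and 4.89 in the other 9 mice.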
